A study of Mus musculus with 12 samples.

Results

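The Toll-like receptors and their adaptors are 10 of the 47643 genes in the count table, chosen by gene symbol for what their products do. Earlier results of these data were known when they were chosen. The 10 are the receptors *Tlr2*, *Tlr3*, *Tlr4*, *Tlr7*, *Tlr9* and *Tlr13*, the co-receptor gene *Cd14*, the chaperone gene *Unc93b1*, and the adaptor genes *Myd88* and *Ticam2*. Of the 10, 9 had enough counts to be tested and *Tlr9* did not. *Ticam2* passed the filter mainly through its RFPpos counts, which made up 38 of its 44.

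The samples came from 5 male p16-3MR mice on a C57BL/6 background, aged 113, 115, 116, 116 and 116 weeks for mice 1 to 5, with no treatment named. Their reporter transgene makes cells with an active p16 promoter fluoresce red, and also encodes a luciferase and a viral kinase. Viable brain cells (DAPI negative, Draq5 positive) of each mouse were sorted by red fluorescence into a low sample, RFPneg, and a high sample, RFPpos, with no marker of cell type in the sort. The single-cell samples of pooled mice were not analysed here.

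Counts on genes were 177287, 196103, 415834, 248471 and 299680 in RFPneg1 to RFPneg5, and 222560, 289713, 223052, 250482 and 242798 in RFPpos1 to RFPpos5. Levels are in CPM, the counts of a gene scaled to the same total in every sample, with the SD over 5 mice, and 1 count stood for between 2.40 and 5.64 CPM. The libraries tag the 3′ end of a transcript, so CPM was not divided by gene length. The levels of single members were not tested against each other. The test was edgeR's quasi-likelihood test with the mouse as a block and Benjamini-Hochberg adjustment, and all adjusted p-values below come from it unless another tool is named. A gene was called at an adjusted p under 0.05, and under a second, stricter rule it also needed a log2 fold change above 1. Log2 fold changes are RFPpos over RFPneg, given with their standard error (SE).

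Toll-like receptors bind conserved parts of microbes, and nucleic acids, and start inflammatory gene expression. Some sit on the cell surface and bind lipids and proteins, while others bind RNA or DNA in endosomes, to which Unc93b1 carries them from the endoplasmic reticulum. All of them except Tlr3 signal through Myd88, and Tlr4 also signals through Ticam1 with the help of Ticam2. In the brain they are best known from microglia, the resident macrophages.

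In these sorted cells *Tlr7*, *Tlr13*, *Unc93b1* and *Ticam2* rose in RFPpos, each by more than 1 log2 unit and each in all 5 mice. Under the first rule 4 of 9 tested members were called higher, beside 4.27% of all 12270 genes tested, and 0 were called lower, beside 7.49%. Without *Ticam2*, which passed the filter through RFPpos, 3 of 8 were called higher. Under the stricter rule 4 of 9 were called higher, or 3 of 8 without *Ticam2*, beside 2.8%. All 9 had a fold change above 0, with a median log2 fold change of 1.06, while the median of all genes was −0.15. At an unadjusted p under 0.05 edgeR gave 8 of 9 higher and 0 lower, beside 8.07% and 13.8% of all genes. At the same cut DESeq2 gave 4 higher, limma voom 7 and edgeR's likelihood ratio test 8, each with 0 lower. DESeq2 called 3 higher and 0 lower, beside 280 and 582 of all genes. Calls by limma voom and by edgeR's likelihood ratio test were 4 higher and 0 lower each. The percentages given here are those of edgeR's quasi-likelihood test. At an unadjusted p no share of all genes was computed for the other tools. The 20 genes of a microglia core list all rose as well, with a median of 1.19. Relative to the counts on that list 0 of 9 members changed by edgeR's test, beside 0.114% of genes called higher and 46.8% called lower on that scale, and 1 member had an unadjusted p under 0.05, beside 53.7% of genes.

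**Figure D1:**
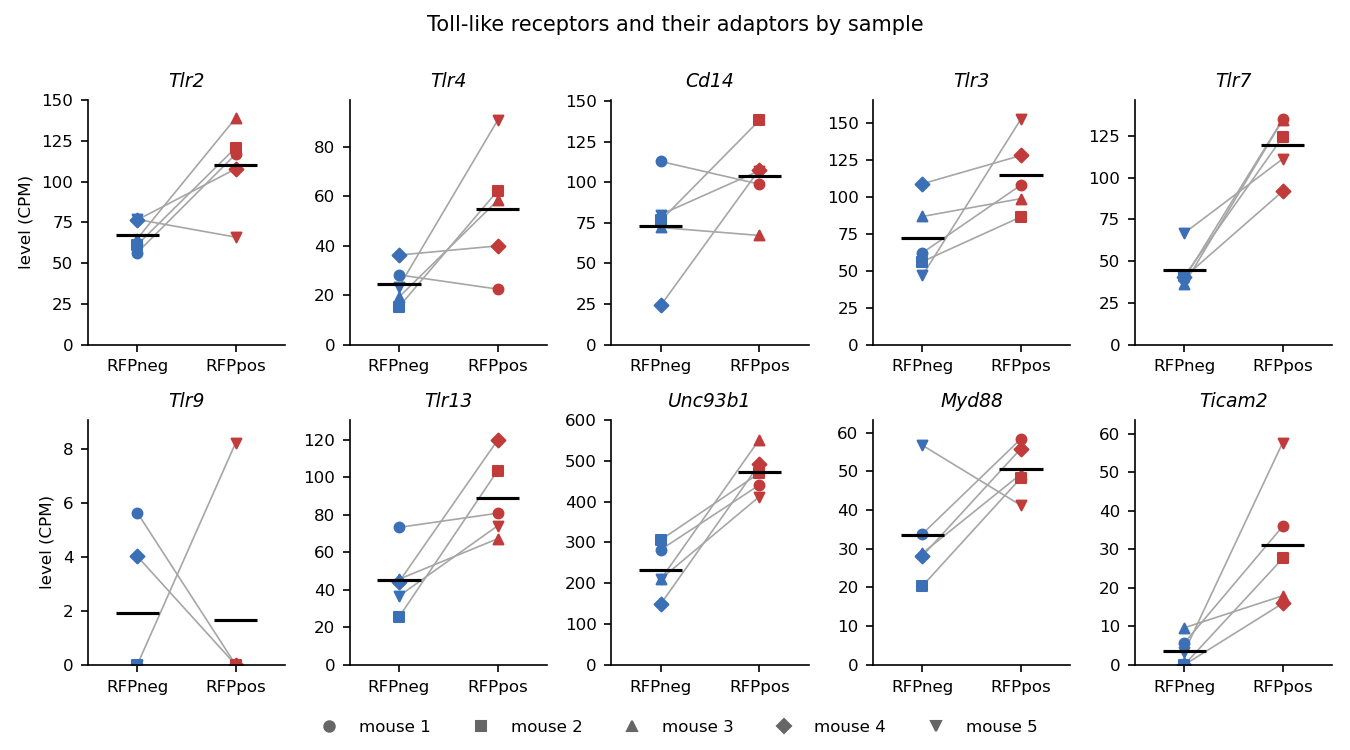
CPM of each member in the RFPneg and RFPpos samples, with a line joining the samples of each mouse. *Unc93b1* lay between 149 and 306 CPM in RFPneg and between 412 and 551 CPM in RFPpos, with no overlap.

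Mouse by mouse, the tested members higher in RFPpos numbered 7 of 9 in mouse 1, 9 in mouse 2, 8 in mouse 3, 9 in mouse 4 and 7 in mouse 5. *Cd14* and *Tlr4* were lower in RFPpos1 than in RFPneg1, *Cd14* in the samples of mouse 3, and *Myd88* and *Tlr2* in those of mouse 5. The summed level of the 10 members was 597 ± 68.0 CPM in RFPneg and 1148 ± 38.3 CPM in RFPpos (n = 5 each). The sums were 699, 602, 572, 511 and 601 CPM in RFPneg1 to RFPneg5 and 1096, 1180, 1184, 1158 and 1120 CPM in RFPpos1 to RFPpos5. Every RFPpos sum thus lay above every RFPneg sum. *Unc93b1* supplied between 29.1% and 50.8% of the member counts of a sample.

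The surface receptors were higher in most mice, but neither was called. *Tlr2* (ENSMUSG00000027995, chr3:83836272-83841767, minus strand), which senses bacterial lipopeptides together with Tlr1 or Tlr6, had 56.4 to 76.7 CPM in RFPneg and 65.9 to 139 CPM in RFPpos, and was higher in 4 of 5 mice. Its log2 fold change was 0.75 (SE 0.31, edgeR adjusted p = 0.107). RFPpos5, at 65.9 CPM, lay inside the RFPneg range, and without mouse 5 the gene was called (edgeR adjusted p = 0.0346), where the other settings gave up to 0.470. *Tlr4* (ENSMUSG00000039005, chr4:66827584-66930284, plus strand), the lipopolysaccharide receptor, had 15.3 to 36.2 CPM in RFPneg and 22.5 to 90.6 CPM in RFPpos, from 32 and 68 counts. It was higher in 4 of 5 mice (log2 fold change 1.20, SE 0.47, 95% interval 0.27 to 2.12, edgeR adjusted p = 0.0826). RFPpos1 was its lowest RFPpos sample, at 22.5 CPM, and without mouse 1 the gene was called (edgeR adjusted p = 0.0432, up to 0.328 in other settings).

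*Cd14* (ENSMUSG00000051439, chr18:36725067-36726798, minus strand), whose product hands lipopolysaccharide to Tlr4, was not called either (log2 fold change 0.63, SE 0.31, edgeR adjusted p = 0.214). Its level was 73.1 ± 31.8 CPM in RFPneg and 104 ± 25.3 CPM in RFPpos, higher in 3 of 5 mice. The low RFPneg4, at 24.1 CPM, lay far from RFPneg1 at 113 CPM, and the RFPpos samples spanned 67.2 to 138 CPM.

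Among the endosomal receptors *Tlr7* (ENSMUSG00000044583, chrX:167304929-167330558, minus strand), which senses single-stranded RNA, rose from 44.7 ± 12.5 to 119 ± 18.1 CPM (log2 fold change 1.48, SE 0.33, 95% interval 0.83 to 2.13, edgeR adjusted p = 1.77e-04). Its CPM was 39.5, 40.8, 36.1, 40.2 and 66.7 in RFPneg1 to RFPneg5 and 135, 124, 134, 91.8 and 111 in RFPpos1 to RFPpos5. The groups did not overlap, RFPneg5 stood above the other RFPneg samples, and all 5 mice were higher in RFPpos. Every alternative setting kept the call, with log2 fold changes of 1.33 to 1.68.

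*Tlr13* (ENSMUSG00000033777, chrX:106143204-106160493, plus strand), a mouse receptor for bacterial ribosomal RNA, rose from 45.1 ± 17.7 to 89.1 ± 21.9 CPM (log2 fold change 1.06, SE 0.36, 95% interval 0.35 to 1.76, edgeR adjusted p = 0.0314). Its CPM was 73.3, 25.5, 45.7, 44.3 and 36.7 in RFPneg1 to RFPneg5 and 80.9, 104, 67.2, 120 and 74.1 in RFPpos1 to RFPpos5. All 5 mice were higher in RFPpos, but RFPneg1 lay above RFPpos3, so the groups overlapped, and mouse 1 showed the smallest step. The call was lost without mouse 2 (edgeR adjusted p = 0.186), without mouse 4 (0.127) and without mouse 5 (0.0508). It was also lost with library size in place of TMM (0.0557), with no filter (0.0521) and with DESeq2 (0.193), and the range over all settings was 0.0240 to 0.193.

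*Tlr3* (ENSMUSG00000031639, chr8:45395665-45411080, minus strand), the receptor for double-stranded RNA, was higher in all 5 mice but was not called (log2 fold change 0.75, SE 0.31, edgeR adjusted p = 0.0988). It had 46.7 to 109 CPM in RFPneg and 86.3 to 152 CPM in RFPpos, and RFPneg3 and RFPneg4 lay within the RFPpos range. The gene overlaps Gm45542 on the other strand. *Tlr9* (ENSMUSG00000045322, chr9:106222598-106226883, plus strand), the receptor for unmethylated CpG DNA, had 2 counts in RFPneg, 1 each in RFPneg1 and RFPneg4, and 2 in RFPpos, both in RFPpos5. It was too low to be tested, and no direction can be given for it. Whether the fold changes of *Tlr7* and *Tlr13* differ from those of *Tlr2*, *Tlr3* or *Tlr4* was not tested.

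**Figure D2:**
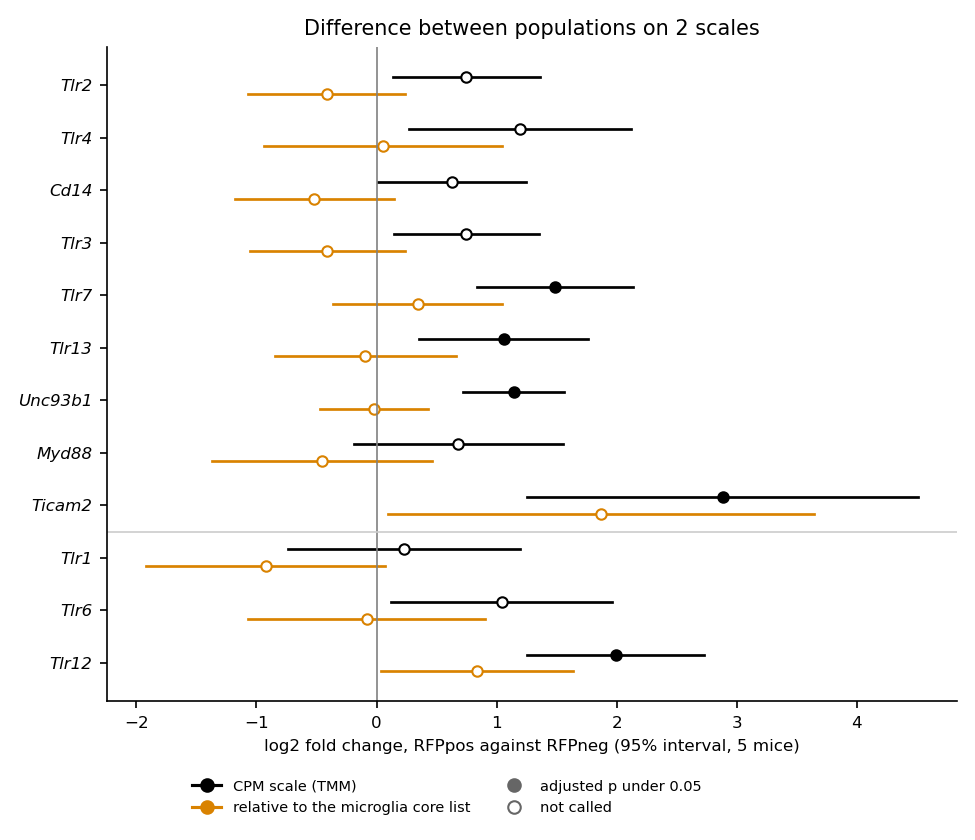
Log2 fold change of RFPpos over RFPneg with 95% intervals for the members and the other tested Toll-like receptors, on the CPM scale and relative to the microglia core list. *Tlr7* stood at 1.48 on the CPM scale and at 0.34 relative to the list.

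All Toll-like receptors were also added up by site. The endosomal ones (*Tlr3*, *Tlr7*, *Tlr8*, *Tlr9*, *Tlr11*, *Tlr12*, *Tlr13*) went from 194 ± 21.9 to 433 ± 29.4 CPM, and the surface ones (*Tlr1*, *Tlr2*, *Tlr4*, *Tlr5*, *Tlr6*) from 153 ± 21.1 to 256 ± 33.5 CPM, both higher in all 5 mice. The endosomal share of receptor counts was 55.9, 59.3, 55.2, 55.3 and 53.8% in RFPneg1 to RFPneg5 and 65.0, 56.9, 61.7, 65.6 and 65.0% in RFPpos1 to RFPpos5. RFPpos2 lay inside the RFPneg range, and the other 4 RFPpos shares lay above all RFPneg shares. The mean share was 55.9 ± 2.05% in RFPneg and 62.9 ± 3.65% in RFPpos, higher in 4 of 5 mice, and this difference was not tested. The 95% intervals of single samples cover counting error only and were wide, for example 45.7% to 71.9% in RFPneg2 and 57.8% to 72.9% in RFPpos4.

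**Figure D3:**
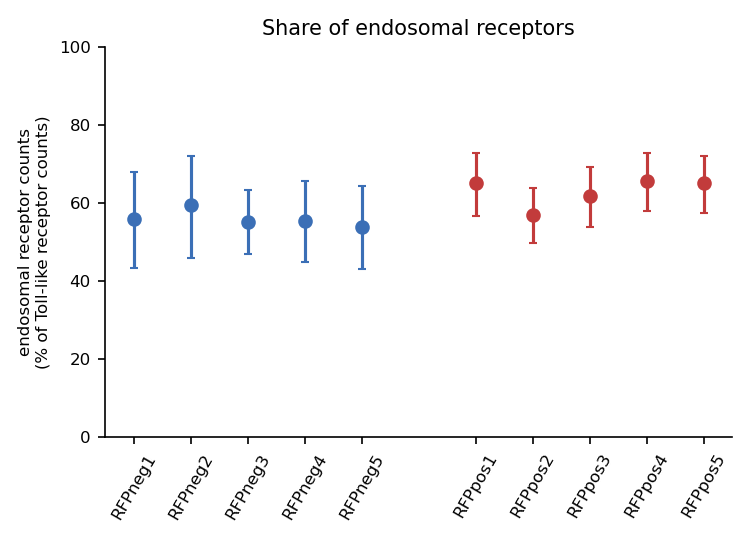
Endosomal share of all Toll-like receptor counts (percent, with 95% intervals for counting error) in each RFPneg and RFPpos sample. The share was lower in RFPpos than in RFPneg only in mouse 2 (56.9% and 59.3%).

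The promoter sequences of 5 of the 10 members (*Tlr2*, *Tlr3*, *Tlr9*, *Tlr13* and *Myd88*) were available, each of 300 bases around a transcription start. They were searched on both strands for GAGGAA, a core bound by the macrophage factor PU.1, for the longer GAGGAAGT, for the kappaB site and for the interferon response element, each in a form of 10 bases with the middle 2 free. GAGGAA was found in *Tlr13* and *Tlr9* and in 28.3% of all 32851 promoters, and GAGGAAGT, which contains it, in *Tlr9* and in 3.20%. The kappaB site was found in *Tlr3*, as GGGAGTTTCC, and in 1.47% of promoters, and the interferon element in *Myd88*, as GAAAGCGAAA, and in 3.44%. *Tlr2* had none of these forms. The form of the kappaB site was narrow, and the *Tlr2* promoter holds gggaattccc, which resembles the site and was not counted. Shown are *Tlr13* as a called member (chrX:106143025-106143324, plus strand), *Tlr3* as the only receptor searched with a match to the kappaB form (chr8:45410331-45410630, minus strand) and, for contrast, *Tlr12*, a called receptor outside the group with no match (chr4:128618570-128618869, minus strand). They are from RefSeq on GRCm38.p6, written 5′ to 3′ along the gene with matches in capitals. The *Tlr12* promoter holds caggaagt, which resembles GAGGAAGT and was not counted. A match describes letters only, and binding was not measured.
Tlr13: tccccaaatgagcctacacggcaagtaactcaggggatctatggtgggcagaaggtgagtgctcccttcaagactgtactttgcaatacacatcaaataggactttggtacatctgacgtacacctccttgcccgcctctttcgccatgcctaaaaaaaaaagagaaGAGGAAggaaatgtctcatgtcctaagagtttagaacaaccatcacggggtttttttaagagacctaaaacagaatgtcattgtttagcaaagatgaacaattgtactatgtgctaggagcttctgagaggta
Tlr3: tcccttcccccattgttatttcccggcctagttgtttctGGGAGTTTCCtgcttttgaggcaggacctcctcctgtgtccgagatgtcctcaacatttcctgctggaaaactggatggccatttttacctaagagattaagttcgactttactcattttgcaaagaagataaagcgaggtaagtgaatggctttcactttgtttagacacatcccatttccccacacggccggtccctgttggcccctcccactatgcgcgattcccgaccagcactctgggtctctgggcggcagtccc
Tlr12: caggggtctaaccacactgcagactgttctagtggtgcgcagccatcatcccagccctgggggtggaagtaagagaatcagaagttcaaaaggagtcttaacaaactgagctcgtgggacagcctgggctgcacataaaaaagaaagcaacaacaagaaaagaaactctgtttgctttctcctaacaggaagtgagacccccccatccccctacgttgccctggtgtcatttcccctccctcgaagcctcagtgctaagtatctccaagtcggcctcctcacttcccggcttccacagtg

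*Unc93b1* (ENSMUSG00000036908, chr19:3935186-3949340, plus strand), which carries the endosomal receptors to their place, rose from 231 ± 63.0 to 473 ± 53.1 CPM (log2 fold change 1.14, SE 0.21, 95% interval 0.72 to 1.56, edgeR adjusted p = 3.35e-06). Its CPM was 282, 306, 209, 149 and 210 in RFPneg1 to RFPneg5 and 440, 469, 551, 491 and 412 in RFPpos1 to RFPpos5. The groups did not overlap, the lowest RFPpos sample being RFPpos5 and the highest RFPneg sample RFPneg2. It was higher in all 5 mice, and every alternative setting kept the call (log2 fold changes 1.03 to 1.28). Among 4365 genes with at least 100 counts, those that varied most like *Unc93b1* over the 10 samples were *Hsp90b1*, *Lrp1* and *Slc9a9* (Pearson r 0.966, 0.963 and 0.950, with no test). The group means were not removed, so a shared difference between RFPneg and RFPpos raises r.

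Of the adaptors, *Ticam2* (ENSMUSG00000056130, chr18:46557291-46574533, minus strand), which links endocytosed Tlr4 to Ticam1, rose from 3.72 ± 4.07 to 31.0 ± 16.9 CPM (log2 fold change 2.88, SE 0.83, 95% interval 1.26 to 4.51, edgeR adjusted p = 0.00705). It had 1, 0, 4, 0 and 1 counts in RFPneg1 to RFPneg5 and 8, 8, 4, 4 and 14 counts in RFPpos1 to RFPpos5. In CPM these were 5.64, 0, 9.62, 0 and 3.34 in RFPneg and 35.9, 27.6, 17.9, 16.0 and 57.7 in RFPpos. The groups did not overlap and all 5 mice were higher in RFPpos, but the size of the change rests on 6 counts in RFPneg. Without mouse 5, whose RFPpos sample was the highest, the call was lost (edgeR adjusted p = 0.0723, range over settings 0.00148 to 0.0723). The gene overlaps *Tmed7* on the same strand, so its counts may hold tags of that gene.

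*Myd88* (ENSMUSG00000032508, chr9:119335934-119341411, minus strand), the adaptor that most Toll-like receptors share, was not called. Its level was 33.6 ± 13.8 CPM in RFPneg and 50.6 ± 6.79 CPM in RFPpos, from 46 and 62 counts (log2 fold change 0.68, SE 0.44, 95% interval −0.19 to 1.55, edgeR adjusted p = 0.408). It was higher in 4 of 5 mice, and RFPneg5, at 56.7 CPM, was the sample that lay within the RFPpos range of 41.2 to 58.4 CPM. It overlaps *Slc22a14* on the same strand and *Acaa1a* on the other, and the strand that was counted is not stated.

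Of the 6 Toll-like receptors outside the group, 3 could be tested and 1 was called. *Tlr12* (ENSMUSG00000062545, chr4:128615443-128618619, minus strand), an endosomal receptor for a profilin of parasites, rose from 30.3 ± 18.2 to 108 ± 28.3 CPM (log2 fold change 1.99, SE 0.38, edgeR adjusted p = 3.79e-06). Its CPM was 33.8, 56.1, 36.1, 12.1 and 13.3 in RFPneg1 to RFPneg5 and 94.4, 82.8, 148, 87.8 and 128 in RFPpos1 to RFPpos5. The groups did not overlap, all 5 mice were higher in RFPpos, and every setting kept the call. *Tlr1* (log2 fold change 0.23, edgeR adjusted p = 0.874) and *Tlr6* (1.04, 0.151), the partners of Tlr2, were each higher in 3 of 5 mice and not called. *Tlr5* had 2 counts in RFPneg and 6 in RFPpos, and *Tlr8* and *Tlr11* had 0 counts in all samples.

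Other co-receptors, chaperones and adaptors of the receptors had 3 of 9 tested genes higher and 0 lower, beside 4.27% and 7.49% of all genes, with a median log2 fold change of 0.64. They were *Cd180* (83.8 ± 43.4 to 189 ± 27.2 CPM, log2 fold change 1.32, edgeR adjusted p = 2.91e-05, higher in 5 of 5 mice), a relative of Tlr4 without a signalling domain, and *Ly86* (121 ± 31.5 to 232 ± 48.4 CPM, log2 fold change 1.01, edgeR adjusted p = 6.56e-04, higher in 5 of 5 mice), its secreted partner. The third was *Hsp90b1* (423 ± 99.9 to 717 ± 29.9 CPM, log2 fold change 0.87, edgeR adjusted p = 3.26e-04, higher in 5 of 5 mice), the chaperone that folds most Toll-like receptors and one of the genes that varied most like *Unc93b1*. *Ly96*, the partner of Tlr4, was not called (log2 fold change 0.43, edgeR adjusted p = 0.600, higher in 4 of 5 mice), nor was *Ticam1*, which Ticam2 leads to (1.42, 0.510, 5 of 5 mice).

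Past the adaptors, the lists of relay genes, transcription factors, negative regulators and targets held 50 tested genes, of which 2 were called higher and 3 lower, near the shares over all genes (4.27% and 7.49%). Of 19 tested genes that relay the signal from Myd88 and Ticam1, edgeR called 0 higher and 0 lower, with 1 higher and 0 lower at an unadjusted p under 0.05, and DESeq2, limma voom and edgeR's likelihood ratio test called 0. Their median log2 fold change was 0.11. Of 9 transcription factors of the pathway 2 rose (median 0.26): *Irf8* (273 ± 70.0 to 507 ± 62.2 CPM, log2 fold change 1.00, edgeR adjusted p = 4.71e-05, higher in 5 of 5 mice), a factor of macrophage identity, and *Rel* (59.1 ± 15.4 to 107 ± 32.0 CPM, log2 fold change 0.90, edgeR adjusted p = 0.0468, higher in 5 of 5 mice), which lost its call in 11 of 15 settings (adjusted p up to 0.237). Of 13 negative regulators 0 rose and 1 fell (median −0.37), namely *Nfkbia* (721 ± 294 to 420 ± 117 CPM, log2 fold change −0.67, edgeR adjusted p = 0.0120, higher in 1 of 5 mice), the inhibitor of NF-κB. *Nfkbia* lost its call with DESeq2 (adjusted p = 0.0587) and without mouse 4 (edgeR, 0.225) or mouse 5 (0.104), over a range of 6.70e-04 to 0.225. DESeq2 called 1 of the transcription factors and 0 of the negative regulators.

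Another list held cytosolic receptors for nucleic acids and microbial products, with partners such as *Pycard*. Of its 10 tested genes 2 rose and 0 fell, beside 4.27% and 7.49% of all genes (median 0.40), and DESeq2 called 1. They were *Tmem173* (95.8 ± 52.3 to 244 ± 47.7 CPM, log2 fold change 1.51, edgeR adjusted p = 1.50e-07, higher in 5 of 5 mice), which encodes STING, and *Pycard* (114 ± 14.3 to 183 ± 39.0 CPM, log2 fold change 0.75, edgeR adjusted p = 0.0327, higher in 5 of 5 mice), the inflammasome adaptor, which lost its call in 9 of 15 settings (adjusted p up to 0.209). Of 9 tested cytokines and other targets of the pathway 0 rose and 2 fell (median −0.48), where DESeq2 called 1. *Ccl5*, a chemokine, fell from 154 ± 57.9 to 4.89 ± 8.65 CPM (log2 fold change −4.85, edgeR adjusted p = 1.50e-21, lower in 5 of 5 mice). *Ptgs2*, which encodes cyclooxygenase 2, had 22 counts in RFPneg and 0 in RFPpos, at least 6.74-fold lower with 3 counts as the floor (edgeR adjusted p = 0.0129). It passed the filter through its RFPneg counts alone. Its call was lost with DESeq2 (0.0732), with thinned counts (0.131) and without mouse 2 (0.171) or mouse 3 (0.0724), and its range over settings was 0.00124 to 0.171.

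**Figure D4:**
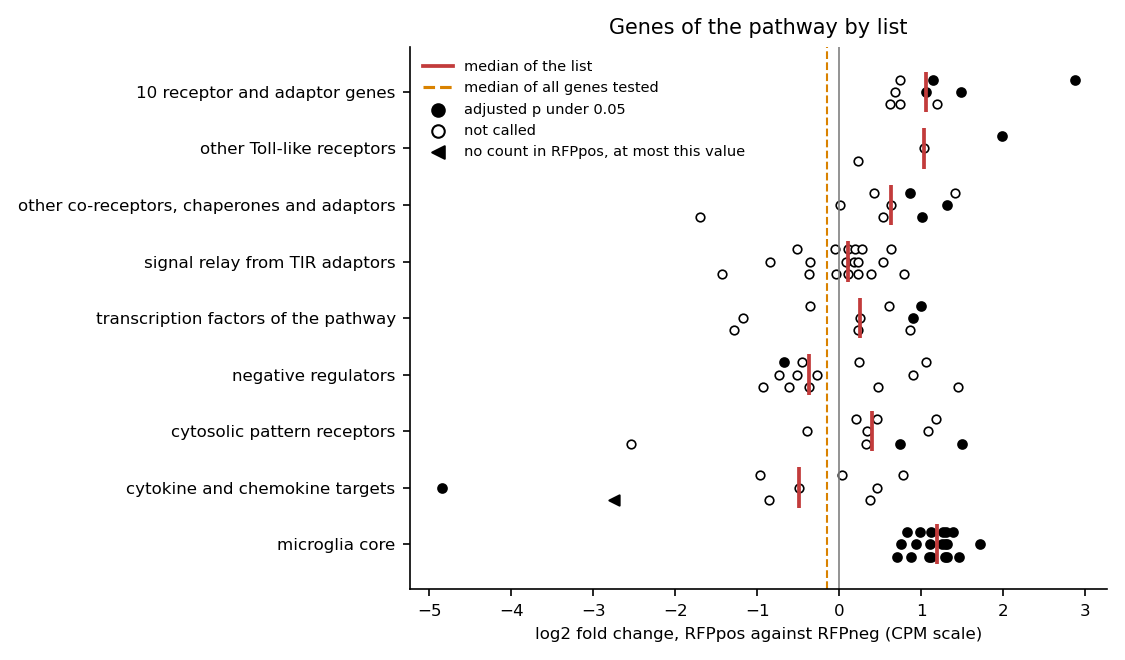
Log2 fold change of RFPpos over RFPneg for each tested gene of the members and the other lists of the pathway, with the list medians marked. The median was 1.06 for the members and 0.11 for the genes that relay the signal.

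Relative to the counts on the microglia core list, 0 of 9 members were called, and the fold changes lay on both sides of 0. *Unc93b1* had a log2 fold change of −0.02 (SE 0.23, 95% interval −0.47 to 0.43, edgeR adjusted p = 0.940), *Tlr13* −0.09 (0.38, 0.849), *Tlr4* 0.05 (0.936) and *Tlr7* 0.34 (0.36, 0.430). *Tlr2* (−0.42), *Tlr3* (−0.41), *Myd88* (−0.45) and *Cd14* (−0.52) lay below 0, so that 6 of 9 were negative and 3 positive, with a median of −0.09. *Ticam2* was the farthest from 0 at 1.87 (SE 0.91, edgeR adjusted p = 0.0758), and without mouse 3 it was called, at 3.00 (edgeR adjusted p = 0.0324, range 0.0324 to 0.267). *Tlr3* was called lower without mouse 5, at −0.79 (edgeR adjusted p = 0.0388, range 0.0388 to 0.686). Outside the group *Tlr12* stood at 0.84 (edgeR adjusted p = 0.0776) and was called without mouse 2, at 1.28 (edgeR adjusted p = 0.0222, range 0.0222 to 0.372). The 10 members had 33.5 ± 4.18 counts per 1000 core counts in RFPneg (28.4 to 39.2) and 30.3 ± 3.17 in RFPpos (25.4 to 34.2), which overlap. By sample these were 30.5, 39.2, 34.9, 34.4 and 28.4 in RFPneg1 to RFPneg5 and 25.4, 31.4, 29.9, 30.6 and 34.2 in RFPpos1 to RFPpos5. The ratio was thus lower in RFPpos in every mouse but mouse 5, and this difference was not tested. Between the scales the median of all genes moved by −1.13, from −0.15 to −1.28. On the relative scale the medians were −1.02 for the relay genes, −1.53 for the negative regulators and −1.63 for the cytokine targets. Those of the transcription factors (−0.82), the cytosolic receptors with their partners (−0.74) and the other co-receptors, chaperones and adaptors (−0.54) lay above the median of all genes.

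Of the marker lists of cell types only the microglia core list had genes called higher in RFPpos. It rose in 20 of 20 genes, and its summed level was 18134 ± 3658 CPM in RFPneg and 38164 ± 3737 CPM in RFPpos. By sample it was 22901, 15364, 16394, 14839 and 21173 CPM in RFPneg1 to RFPneg5 and 43090, 37613, 39547, 37815 and 32756 CPM in RFPpos1 to RFPpos5. Its most abundant gene was *Ctss*, by counts over all 10 samples as for every list below, and none of its genes was at 0. Macrophages at the borders of the brain (*Mrc1* most abundant) had 0 of 9 tested genes called by edgeR, with 0 higher and 1 lower at an unadjusted p under 0.05. DESeq2 and limma voom called 0, and the likelihood ratio test called 1 lower. Their summed level was 228 to 274 CPM in RFPneg and 208 to 411 CPM in RFPpos.

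Markers of blood-derived myeloid cells, which also carry Toll-like receptors, fell. Of 10 monocyte genes 9 fell (median −3.28), and the summed level was 1624, 1560, 1796, 2036 and 1602 CPM in RFPneg1 to RFPneg5 and 67.4, 183, 206, 339 and 136 CPM in RFPpos1 to RFPpos5. *H2-Aa* was the most abundant of them, and *Ly6c2* and *Chil3* had 0 counts in RFPpos (at least 18.1-fold and 22.4-fold lower). Of 9 tested neutrophil genes 7 fell (median −4.89, or −4.64 with genes at 0 set to their bound). Their sum was 2696, 2881, 7301, 4391 and 2439 CPM in RFPneg1 to RFPneg5 and 121, 228, 256, 59.9 and 37.1 CPM in RFPpos1 to RFPpos5, with *S100a8* most abundant over all samples and *Ly6g*, *Mmp9* and *Ltf* at 0 in RFPpos. Every RFPpos sum of both lists lay below every RFPneg sum.

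Lymphocyte markers fell in 2 of 7 tested genes (2 to 4 by the other tools, median −3.89, or −1.61 with genes at 0 set to their bound). Their sum was 51.0 to 175 CPM in RFPneg and 3.45 to 22.4 CPM in RFPpos, *Trbc2* was the most abundant over all samples, and 7 of 10, among them *Cd3e* and *Cd79a*, had 0 counts in RFPpos. The called genes, *Nkg7* (39 counts in RFPneg) and *Trbc2* (53 counts), were at 0 in RFPpos. In the marker lists of cell types, every tested gene at 0 in RFPpos passed the filter through its RFPneg counts alone. Endothelial markers fell in 10 of 10 (median −4.95), with a sum of 1653 to 7264 CPM in RFPneg and 112 to 359 CPM in RFPpos, *Flt1* most abundant over all samples and *Emcn* at 0 in RFPpos. Mural cell markers fell in 8 of 10 (4 by DESeq2, median −4.24, or −2.72 with bounds), with a sum of 262 to 566 CPM in RFPneg and 13.5 to 112 CPM in RFPpos, *Vtn* most abundant over all samples and 5 genes at 0 in RFPpos. Of the called mural genes, *Kcnj8*, *Abcc9*, *Cspg4* and *Higd1b* were at 0 in RFPpos and passed the filter through RFPneg alone. The called *Pdgfrb*, *Rgs5*, *Acta2* and *Vtn* had counts in RFPpos. Oligodendrocyte markers fell in 10 of 10 (median −4.49, or −3.71 with bounds), with a sum of 1248 to 3599 CPM in RFPneg and 169 to 364 CPM in RFPpos, *Mbp* most abundant and *Opalin* at 0 in RFPpos.

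Astrocyte markers fell in 3 of 10 genes (1 by DESeq2, median −0.40), with a sum of 3791 to 5467 CPM in RFPneg and 908 to 5549 CPM in RFPpos, where RFPpos1 was the low sample. Over all samples *Slc1a2* was the most abundant of them, and in RFPpos *Slc1a3* was. Neuron markers fell in 4 of 9 (1 by DESeq2, median −1.78), with a sum of 237 to 499 CPM in RFPneg and 51.9 to 210 CPM in RFPpos and *Meg3* most abundant. Of 8 tested genes of the response to tissue dissociation 1 fell, beside 7.49% of all genes, where DESeq2 called 0. It was *Dusp1* (46 and 7 counts, log2 fold change −2.42, edgeR adjusted p = 0.0204, up to 0.171 in other settings), and the list median was −0.67. The part of these lists in the results for the receptors was not tested. In bulk samples, fewer cells of a type and less RNA per cell cannot be told apart.

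**Figure D5:**
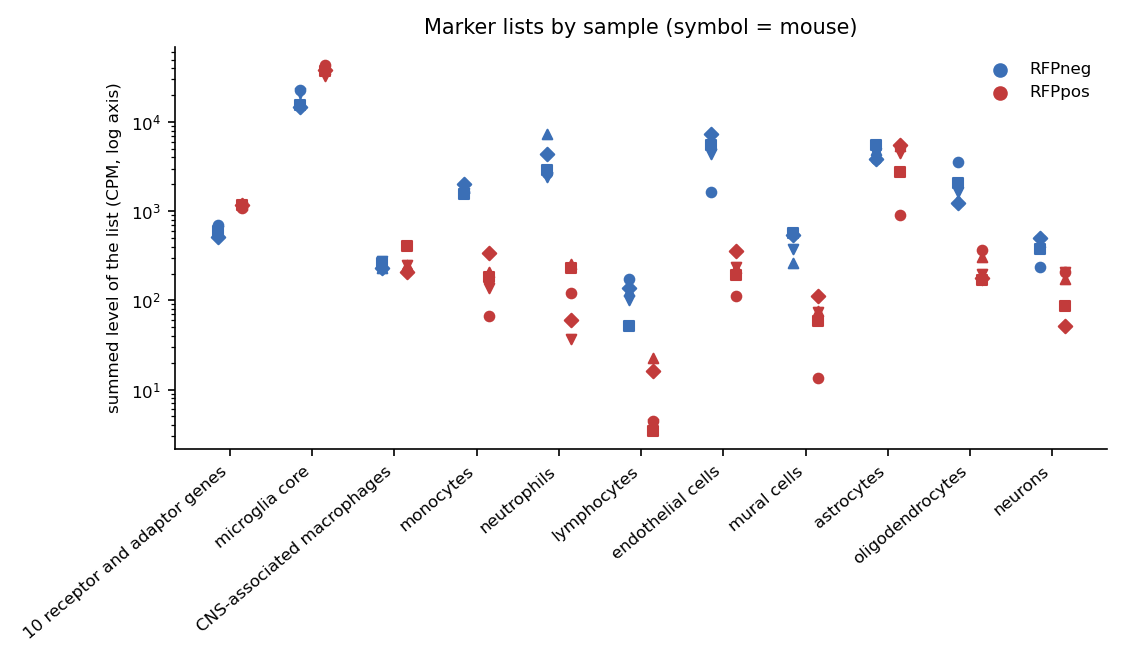
Summed CPM of the marker list of each cell type in the RFPneg and RFPpos samples, on a logarithmic scale. The microglia core sums of RFPpos lay between 32756 and 43090 CPM and those of RFPneg between 14839 and 22901 CPM.

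The values carry several limits. Members other than *Unc93b1* had at most 146 counts per population, so a fold change that was not called may still be large, as the interval of *Tlr4* shows. The sort took cells by fluorescence and the marker lists differed between the groups, so no change can be placed within a cell type. The list used for the relative scale was itself called higher, and its counts were taken as exact. Intervals cover counting error and the spread of 5 mice of a single sex and age range. RNA levels were measured, not protein or signalling.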

How the data were processed

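RNA of sorted brain cells was measured with QuantSeq 3′ FWD libraries, whose reads the authors processed with the Lexogen FWD UMI pipeline on the BlueBee platform. The authors deposited these as counts for each gene and sample, without normalization. The genome build and annotation were not given in the sources used here. GENCODE M21 on GRCm38 gave symbols for 47224 of 47643 identifiers, and coordinates. Reads on no gene were between 32.1% and 37.2% of a file in RFPneg and between 38.4% and 48.6% in RFPpos (means 34.9 ± 2.24% and 41.5 ± 4.27%), and ambiguous reads between 0.295% and 0.436%. Both were left out of the library sizes.

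Genes with at least 10 counts over all samples were kept, 12270 of 18571 with any count. TMM factors lay between 0.890 and 1.07. edgeR 4.0.16 (R 4.3.3) fitted a quasi-likelihood model with the mouse as a block, with Benjamini-Hochberg adjustment of its p-values. In the relative fit the library size was replaced by the sum over the 20 core genes. Alternatives were other scalings and filters, thinned counts, no block, edgeR's likelihood ratio test, DESeq2 1.42.0, limma voom 3.58.1 and each mouse left out. Tables and figures were made with Python 3.11.15, and the code was tried on simulated counts beforehand.

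Samples were paired by the mouse number in their labels. After removing the group means, the samples of a mouse correlated at 0.10, −0.00, 0.05, 0.00, 0.01 (r, mice 1 to 5). The highest correlation with another mouse was −0.01, 0.03, 0.06, 0.01 and 0.02, so the same-mouse value was the higher only in mouse 1. Members and lists were chosen with earlier results of these data known. Beyond the members, genes were picked to be named when they were other Toll-like receptors, called genes of a pathway or dissociation list, or the gene of a marker list with the most counts over all samples. A few more are named as receptor partners, as markers at 0 or as genes that varied like *Unc93b1*.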

Additional observations from a re-analysis of the deposited data

Results flagged for a closer look

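In 7 of 112 groups of 5 samples a single sample stood far from the other 4, by a rule under which chance alone marks about 1 group in 20. *Tlr7* was at 66.7 CPM in RFPneg5, where the other RFPneg samples had 36.1 to 40.8 CPM. *Tlr9* was at 8.24 CPM in RFPpos5, where the others had 0. *Tlr5* was at 4.81 CPM in RFPneg3, where the others had 0. *Ccl5* was at 19.96 CPM in RFPpos4, where the others had 0 to 4.48 CPM. *Ptgs2* was at 45.9 CPM in RFPneg2, where the others had 5.64 to 16.8 CPM. The summed level of the negative regulators was 1501 CPM in RFPneg4, where the others had 824 to 1003 CPM. The summed level of the macrophages at the borders of the brain was 411 CPM in RFPpos2, where the others had 208 to 251 CPM. The counts behind *Tlr9* and *Tlr5* were 2 each.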

How the results depend on the processing

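Of 45 fold changes of single genes 25 were called, 15 of them in every setting, and of the 20 not called 15 were called in no setting. Over 584 alternatives 531 left this as it was, 48 lost a call and 5 gained one. The sign differed in 10 alternatives, none called, all relative to the core list (*Tlr4*, *Tlr13*, *Unc93b1* and *Tlr6*). With a stricter filter by group (edgeR's filterByExpr) 4210 genes were left. There 489 genes were lower, in place of 919, and 2 members were higher with a log2 fold change above 1, in place of 4, because *Ticam2* was not tested and *Tlr13* stood at 0.98. With DESeq2's Wald test 280 genes were higher in place of 524, 582 lower in place of 919, and 209 higher with a log2 fold change above 1 in place of 343. With 1 mouse left out, 403 to 514 genes were higher and 660 to 825 lower, and 305 to 374 were higher with a log2 fold change above 1. The members called higher then numbered 3 to 5, those also above 1 numbered 2 to 5, and those called relative to the core list 0 to 1.

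The mouse block was taken from the pairing in the labels. With no block 541 genes were higher, 1011 lower and 371 higher with a log2 fold change above 1, with 4 members called higher, 4 also above 1, and 0 called relative to the core list. Leaving it out ended the call of *Slc1a2* (edgeR adjusted p = 0.0764) and changed no other call among the 33 genes followed through the settings.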
